A study of Rattus norvegicus with 35 samples.

Results

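Ribosomal protein genes were followed in normal rat mammary glands and in rat mammary tumours. The members were the genes whose platform symbol is Rpl or Rps followed by a digit, or Rplp0, Rplp1, Rplp2 or Rpsa, with the S6 kinase genes left out. Of 10411 genes read by a probe set with a single symbol, 44 met this rule, 30 for proteins of the large subunit and 14 for proteins of the small subunit. Each gene was read by its brightest probe set, judged by the mean of the 35 arrays. Another 34 probe sets for ribosomal proteins carry several symbols, so they were counted and, with few exceptions, not named.

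The series measured total RNA of 11 normal mammary glands and 24 tumours on 35 arrays. The keywords of the samples name NMU, N-methyl-N-nitrosourea, which alkylates DNA and is given to rats as a mammary carcinogen, and the tumours are described as frozen. The titles divide the normal glands into 8 called NewN and 3 others called X27.1N, X28.1N and Young, and the labels do not say what the titles stand for. The labels give no strain, age, dose or storage of the normal glands, and no animal for any sample. A p-value here therefore reflects how far the samples spread, and some of that spread may be technical. Precision is limited by how many arrays there were.

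A ribosome has a small subunit, which holds the mRNA and reads its codons, and a large subunit, which joins the amino acids. Each subunit is ribosomal RNA bound by many small, mostly basic proteins, one copy of most of them per ribosome, so cells make these proteins in matched amounts. Their mRNAs typically begin with a cytidine and a run of pyrimidines, the terminal oligopyrimidine tract, through which the mTOR pathway and the RNA-binding protein Larp1 control their translation. Milk-producing epithelium and dividing cells are known for a high demand for ribosomes.

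The bases around the annotated start of transcription are shown for the members the results turn on, because the pyrimidine tract lies there. RefSeq, assembly GRCr8, gave a sequence for 39 of the 44 members, and each line below holds 15 bases before the start and 15 from the start on, on the strand of the gene. Capitals mark a short pyrimidine motif on the strand of the RNA, either the letters CTTTC or the more cytidine-rich letters CTTCC. Matches of both can overlap by their outer bases. The other strand was searched for the complements, which read GAAAG for the former and, for the latter, GGAAG. The first set holds all 8 members with a sequence that were called higher in tumours under both array scalings.
Rpl12 (chr3:36661925-36661954, + strand): ggagcaacatccgtcttttcggCTTTCggt
Rpl21 (chr12:13386139-13386168, - strand): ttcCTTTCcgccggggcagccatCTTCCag
Rpl18 (chr1:105325255-105325284, + strand): tctggacctggtctagcaggaggcgccatc
Rpl24 (chr11:58128391-58128420, - strand): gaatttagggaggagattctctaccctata
Rpl6 (chr12:41011676-41011705, - strand): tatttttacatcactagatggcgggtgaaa
Rpl41 (chr7:1563483-1563512, - strand): ggcggctcggaagtgacgacaccaagcacg
Rps16 (chr1:92770643-92770672, + strand): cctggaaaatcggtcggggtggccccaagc
Rps27l (chr8:76443643-76443672, + strand): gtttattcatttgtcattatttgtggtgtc

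The next lines belong to members called lower in tumours under at least one scaling.
Rps9 (chr1:74430423-74430452, - strand): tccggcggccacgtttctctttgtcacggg
Rpl14 (chr8:129163605-129163634, + strand): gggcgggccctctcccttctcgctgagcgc
Rps4y2 (chr4:183000898-183000927, + strand): gcgcgcagctctcctcactcgcttgtgctc
Rpl3l (chr10:14258431-14258460, + strand): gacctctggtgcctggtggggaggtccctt

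The last set holds the other members with a sequence that were called between the 2 kinds of normal gland, and then Rpl5, Rpl11, Rps6 and Rpsa, which are described below though not called in tumours. Rps6 is the small-subunit protein phosphorylated by the S6 kinases.
Rpl19 (chr10:83519049-83519078, + strand): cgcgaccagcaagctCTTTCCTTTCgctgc
Rpl4 (chr8:73566462-73566491, + strand): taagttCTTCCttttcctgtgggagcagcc
Rpl37a (chr9:81748076-81748105, + strand): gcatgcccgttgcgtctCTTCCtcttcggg
Rps15a (chr1:181860270-181860299, - strand): cggcgttttCTTTCcacagtcaccatggtg
Rpl5 (chr14:1995211-1995240, - strand): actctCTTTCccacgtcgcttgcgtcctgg
Rpl11 (chr5:153560788-153560817, - strand): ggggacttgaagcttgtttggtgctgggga
Rps6 (chr5:106420526-106420555, - strand): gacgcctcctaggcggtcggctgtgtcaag
Rpsa (chr8:128728864-128728893, + strand): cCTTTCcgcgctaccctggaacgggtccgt

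The motif stood on the RNA strand of 20 of the 39 members (51.3%) and of 9.33% of all 33469 RefSeq promoters cut to the same 30 bases. On the other strand it stood in 7.69% of the members and 10.2% of all promoters. It was found in 19 of 34 members with a mean signal over 1000 and in 12 of 57 mitochondrial ribosomal protein genes (21.1%). Genes of ribosome assembly and ribosomal RNA synthesis held it in 9 of 48 (18.8%), and genes of translation elongation and termination in 0 of 11. Among members called higher under both scalings, 2 of the 8 with a sequence held it, and among those called in neither direction under either scaling 13 of 19 did. Of the 4 with a sequence that were called lower under the deposited scaling, 0 held it. A match says that the letters are present, and its absence says only that they are not in this window.

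The ribosomal protein probe sets were among the brightest on the arrays. The 38 brighter members had mean signals from 3044 to 7127, and 29 of the 44 lay above the 99th percentile of their array on all 35 arrays. Whether such bright probe sets still answer in proportion to the RNA was not tested. The other 6 members were dim: Rps27l, Rps4y2, Rpl39, Rpl7l1, Rpl3l and Rpl30. Rpl30, a large-subunit protein, was at or below the floor signal of 41.6 in all 11 normal glands and in 20 tumours, so its probe set gave no measured level there. Bright probe sets whose several symbols include Rpl30 had means of 4157 and 3237 in normal glands, so the gene itself need not be low.

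The upper part of the signal range differed between the groups, which bears directly on bright genes. The 90th percentile of an array's signal was 718 ± 38.6 (SD) in the 11 normal glands and 596 ± 46.1 (SD) in the 24 tumours. Every member is therefore given under the deposited scaling and after quantile normalization, which gives all arrays the same distribution. For the Gapdh controls, whose signal at the 3' end over that at the 5' end is a sign of RNA quality, normal glands had a ratio of 1.13 ± 0.126 and tumours one of 1.02 ± 0.0795 (SD). Of all 10411 genes 31.4% rose in tumours and 27.5% fell, by the test described below under the deposited scaling. Adipocyte markers fell in tumours for 21 of 22 genes, with summed signals from 23740 to 60350 in normal glands and from 1913 to 9173 in tumours. Skeletal muscle markers fell for 15 of 18, with sums of 2779 to 28230 and 2050 to 4689, and Acta1 was at the floor in 21 tumours. Fibroblast markers fell for 13 of 14, with sums of 30430 to 68790 and 1889 to 62160, endothelial markers for 10 of 11, with sums of 3841 to 5235 and 1597 to 3543, and lymphocyte markers for 8 of 17 while 2 rose. Macrophage markers fell for 9 of 14 and rose for 2, and markers of basal epithelium fell for 5 of 14 and rose for 1. Luminal epithelial markers rose for 12 of 19, and mitosis and replication genes rose for 22 of 25. The part of these differences in the ribosomal protein results was not tested, and in bulk tissue fewer cells of a type and less RNA per cell cannot be told apart.

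Most ribosomal protein genes differed little between tumours and normal glands. Under the deposited scaling, 9 of the 44 were higher in tumours, 5 were lower and 30 were not called, where a call is a limma adjusted p under 0.05 over all genes. Over all 10411 genes 31.4% were higher and 27.5% lower. The median log2 change, tumour minus normal, was 0.0061 for the members and 0.024 for all genes, and the median size of the change was 0.083 against 0.283. Most of all genes are far dimmer than the members. Other equally bright genes were not compared, so whether small changes are particular to the members was not tested. Changes of at least 1.5-fold that were also called were found for 2 members, Rps27l and Rps4y2, and for 19.4% of all genes. In none of the members did the tumours and the normal glands separate without overlap under the deposited scaling, which 2.53% of all genes did.

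Quantile normalization moved the members upward. After it 18 of the 44 were higher in tumours, 2 were lower and 24 were not called, against 33.9% higher and 22.5% lower among all genes. The median log2 change was then 0.094 for the members and 0.066 for all genes. All 9 members called higher under the deposited scaling were also called higher after quantile normalization, and another 9 joined them. Of the 5 called lower, Rps4y2 and Rpl3l were called under both scalings, and the call of Rpl3l was lost with a higher floor (adjusted p = 0.211, limma, floor at the 25th percentile of all values). The sign of the change differed between the scalings for 11 members. The large and small subunits are given side by side. Of 30 large-subunit members 7 rose and 2 fell under the deposited scaling, with a median of 0.02, and 13 rose and 1 fell after quantile normalization, with a median of 0.10. Of 14 small-subunit members 2 rose and 3 fell, with a median of -0.03, and then 5 rose and 1 fell, with a median of 0.08.

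**Figure D1:**
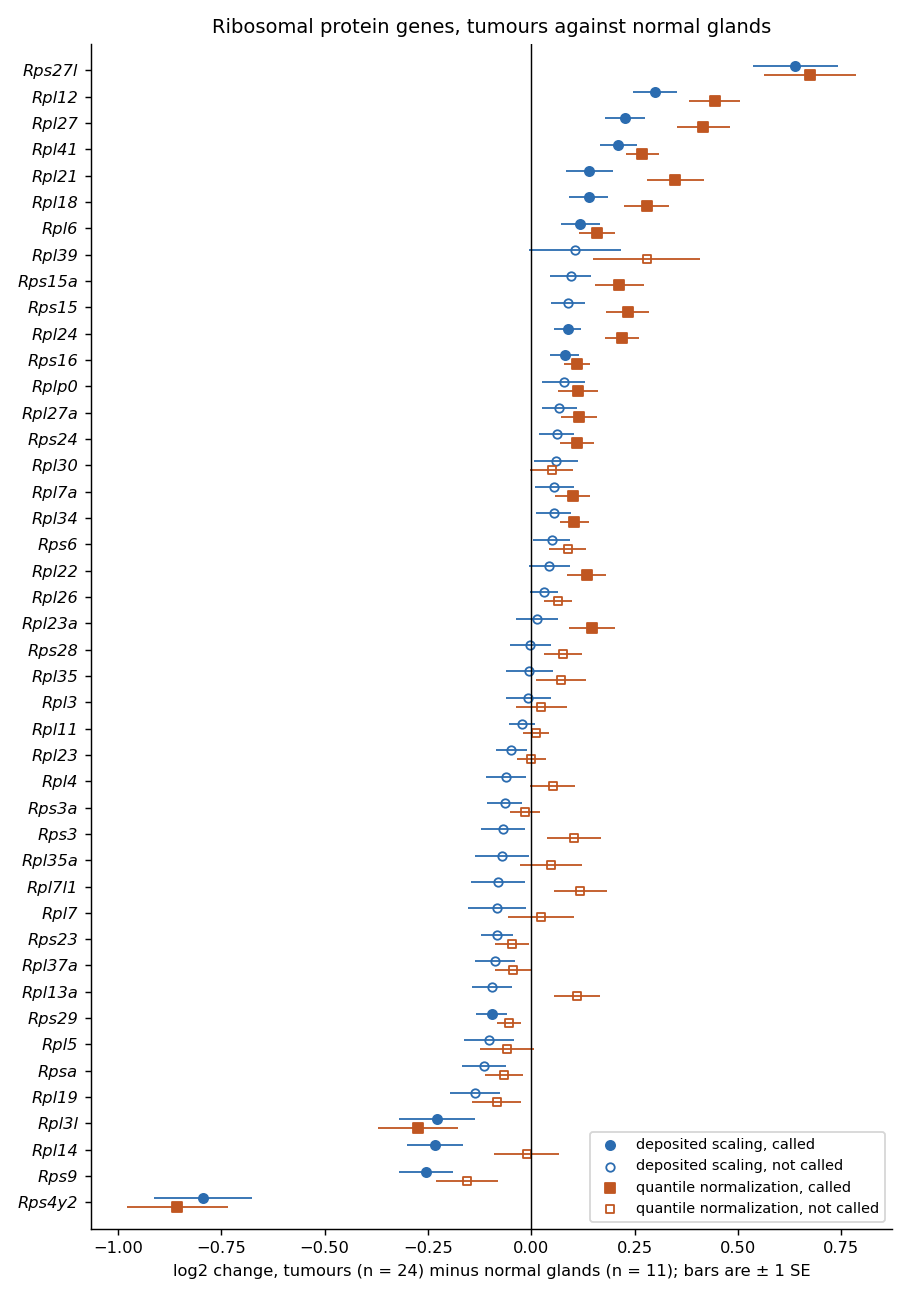
Log2 change of each of the 44 ribosomal protein genes in tumours (n = 24) against normal glands (n = 11), with bars of 1 SE; circles are the deposited scaling, squares quantile normalization, and filled symbols were called at an adjusted p under 0.05 (limma). Most members lie close to 0, quantile normalization moves most of them to the right, and Rps27l at 0.64 and Rps4y2 at -0.80 lie farthest out under the deposited scaling.

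The mRNA of the large-subunit protein Rpl12 showed the largest rise among the bright members. Rpl12 lies at the base of the ribosomal stalk, where elongation factors bind. Its signal ran from 3243 through a median of 4008 to 4717 in normal glands, and from 4159 through 4999 to 6190 in tumours. The ranges overlapped, but 15 of 24 tumours lay above every normal gland and all 24 lay above the normal median. The log2 change was 0.30 ± 0.05 (SE; limma adjusted p = 1.57e-05) under the deposited scaling and 0.44 ± 0.06 (SE; limma adjusted p = 2.34e-07) after quantile normalization. X27.1N was the normal gland with the highest Rpl12 signal, and the tumour X25L was the highest of all. Against X27.1N, X28.1N and Young alone, the change was 0.22 (limma adjusted p = 0.0895, deposited scaling).

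Rpl27, a large-subunit protein whose human gene is one of those mutated in Diamond-Blackfan anemia, followed closely. Normal glands ranged from 2870 to 3847 with a median of 3363, and tumours from 3511 to 4722 with a median of 3912. All 24 tumours lay above the normal median and 14 lay above every normal gland. The log2 change was 0.23 ± 0.05 (SE; limma adjusted p = 0.000149) under the deposited scaling and 0.42 ± 0.06 (SE; limma adjusted p = 1.29e-06) after quantile normalization.

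Rpl41, a very short and strongly basic peptide of the large subunit, had a narrower shift. Its signal was 4472 to 6425 in normal glands, median 4982, and 5251 to 6699 in tumours, median 5909. All 24 tumours lay above the normal median, but only 3 lay above the highest normal gland. Its log2 change was 0.21 ± 0.04 (SE; limma adjusted p = 0.000126) under the deposited scaling and 0.27 ± 0.04 after quantile normalization. The call rests on the NewN glands: against X27.1N, X28.1N and Young alone, the change of Rpl41 was 0.02 (limma adjusted p = 0.914, deposited scaling).

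The other bright members that rose under both scalings changed by less than these 3 under the deposited scaling. Under the deposited scaling the log2 changes were 0.14 for Rpl21, 0.14 for Rpl18, 0.12 for Rpl6, 0.09 for Rpl24 and 0.08 for Rps16, with limma adjusted p-values from 0.0104 to 0.0438. Rpl24 belongs to a bridge between the subunits, and a mutant mouse copy is known to slow lymphomas driven by Myc. Its signal was 3816 to 4478 in normal glands, median 4191, and 4077 to 4982 in tumours, median 4431, with 11 tumours above every normal gland. Rps16, whose tail reaches the transfer RNA in the decoding centre, was 5050 to 6005 in normal glands, median 5740, and 5380 to 6561 in tumours, median 5966. Here too 11 tumours lay above every normal gland. After quantile normalization Rpl21, at 0.35 ± 0.07 (SE), and Rpl18, at 0.28 ± 0.05 (SE), lay above Rpl41. Against X27.1N, X28.1N and Young alone, the change of Rpl21 was -0.0517 (limma adjusted p = 0.753, deposited scaling), and of the 5 Rpl6 alone was called, at 0.25 (limma adjusted p = 0.0338).

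Rps27l rose most of all members. It encodes a close copy of the small-subunit protein Rps27 and is known as a gene induced by p53. Its signal was low for a ribosomal protein gene, from 145 through 176 to 214 in normal glands and from 170 through 273 to 450 in tumours. Of the 24 tumours 20 lay above every normal gland, 23 lay above the normal median, and X14 was the lowest. The change was 1.56-fold, a log2 change of 0.64 ± 0.10 (SE; limma adjusted p = 2.97e-06) under the deposited scaling and 0.67 ± 0.11 (SE; limma adjusted p = 4.38e-06) after quantile normalization. Of 2 other known p53 targets on the lists, Cdkn1a rose, with 160 ± 15.6 (SD) in normal glands and 272 ± 73.4 (SD) in tumours and a log2 change of 0.72 ± 0.11 (SE; limma adjusted p = 1.97e-06, deposited scaling). The other, Mdm2, was not called, with means of 132 in normal glands and 126 in tumours and a log2 change of -0.0075 ± 0.14 (SE; limma adjusted p = 0.98).

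Rps4y2, a copy of the gene for the small-subunit protein Rps4, fell most. Normal glands ranged from 114 to 183 with a median of 163, and tumours from 49.6 to 148 with a median of 89.6. All 24 tumours lay below the normal median and 21 lay below every normal gland. The log2 change was -0.80 ± 0.12 (SE; limma adjusted p = 7.08e-07) under the deposited scaling and -0.86 ± 0.12 (SE; limma adjusted p = 3.44e-07) after quantile normalization. RNA from near-identical copies of a ribosomal protein gene can bind the same probes, so the source of a dim signal of this kind is uncertain.

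Rpl3l, the muscle paralog of Rpl3, was measured above the floor in 3 normal glands and in no tumour. Its signal was 116 in NewN2, 62.6 in NewN3 and 56.4 in NewN7, and the other 8 glands and all 24 tumours were at or below 41.6. These 3 glands also had the 3 highest sums of the skeletal muscle markers, 28231 in NewN2, 16281 in NewN3 and 17895 in NewN7, against 2779 to 9864 in the other glands. With lower values set to the floor, the log2 change was -0.23 ± 0.09 (SE; limma adjusted p = 0.031, deposited scaling), and with the floor at the 25th percentile it was -0.05 (limma adjusted p = 0.211). It is no measure of a fold, since most arrays gave no level above the floor, and X27.1N, X28.1N and Young were at the floor like the tumours. Rpl3 itself, which lines the peptidyl transferase centre, ranged from 5715 to 8129 in normal glands and from 5474 to 8172 in tumours, with a log2 change of -0.01 ± 0.05 (SE; limma adjusted p = 0.929).

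**Figure D2:**
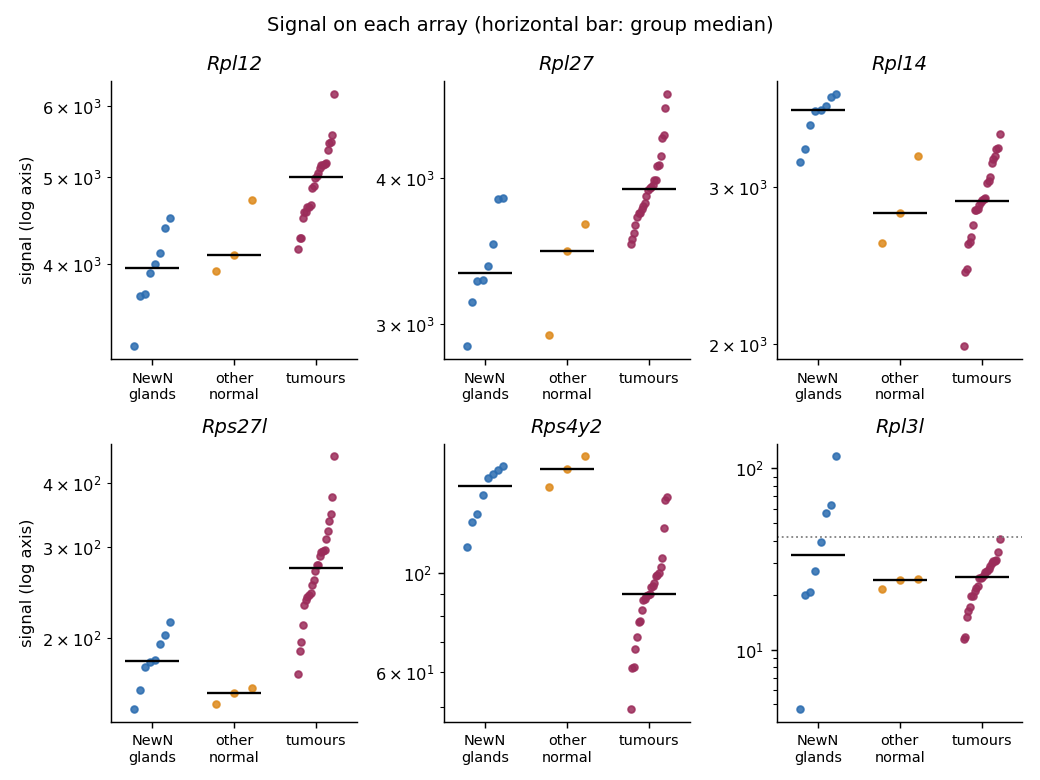
Signal of 6 ribosomal protein genes on each of the 35 arrays, each panel with its own log axis; points are arrays, short horizontal bars are medians of the NewN glands (8), the other normal glands (3) and the tumours (24), and the dotted line is the floor of 41.6. Rpl12, Rpl27 and Rps27l lie higher in most tumours, Rps4y2 lies lower in most tumours, and Rpl3l is above the floor in 3 NewN glands alone.

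Rps9, Rpl14 and Rps29 fell under the deposited scaling and were not called after quantile normalization, nor against X27.1N, X28.1N and Young alone. Rps9 sits near the channel through which mRNA enters the small subunit. Its signal was 3576 to 4989 in normal glands, median 4836, and 2669 to 4551 in tumours, median 3831. All 24 tumours lay below the normal median and 5 lay below every normal gland. The log2 change was -0.25 ± 0.07 (SE; limma adjusted p = 0.00128) under the deposited scaling and -0.16 ± 0.07 (SE; limma adjusted p = 0.0727) after quantile normalization.

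For Rpl14, a large-subunit protein, the 2 scalings and the 2 probe sets gave different answers. The brighter probe set read 2599 to 3817 in normal glands, median 3517, and 1988 to 3444 in tumours, median 2897, with all 24 tumours below the normal median. The log2 change was -0.23 ± 0.07 (SE; limma adjusted p = 0.00319) under the deposited scaling and -0.01 ± 0.08 after quantile normalization. The dimmer probe set of Rpl14, in a fit over all probe sets, read 86.7 ± 20.4 in normal glands and 111 ± 22.9 in tumours (SD), so that the log2 change was 0.36 ± 0.12 (SE; limma adjusted p = 0.00841). Rps29, a small zinc-binding protein, had a log2 change of -0.10 ± 0.04 (SE; limma adjusted p = 0.0263) under the deposited scaling and -0.05 ± 0.03 after quantile normalization, and the value turned to 0.0348 when arrays were scaled on their 75th percentile.

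Rpl5, Rpl11, Rps6 and Rpsa, each by its brightest probe set, did not pass the test under either scaling. Rpl5 and Rpl11 bind Mdm2 together with 5S ribosomal RNA and thereby stabilise p53. Rpl5 ranged from 4566 to 6417 in normal glands and from 4120 to 6050 in tumours, and its log2 change was -0.10 ± 0.06 (SE; limma adjusted p = 0.144). Rpl11 ranged from 5041 to 5822 and from 5021 to 6017, with a log2 change of -0.02 ± 0.03 (SE; limma adjusted p = 0.571). Its spread in tumours under the deposited scaling, 0.063 (SD of log2), was the smallest of the 38 bright members. Rps6 had a log2 change of 0.05 ± 0.04 (SE; limma adjusted p = 0.348), and Rpsa, which is also known as the laminin receptor precursor, one of -0.11 ± 0.05 (SE; limma adjusted p = 0.0673). In the fit over all probe sets, one of the 2 dimmer probe sets of Rpsa was called lower under the deposited scaling, at -0.16 ± 0.05 (SE; limma adjusted p = 0.0116), and was not called after quantile normalization, at 0.08 ± 0.06 (SE).

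Rplp0, a stalk protein whose mRNA is often used as a reference, had an SD of 240.1 in normal glands and 603 in tumours. It ranged from 5031 to 5682 in normal glands, median 5244, and from 4401 to 6775 in tumours, median 5662. Of the 24 tumours 11 lay above every normal gland and 3 below every normal gland. Its log2 change was 0.08 ± 0.05 (SE; limma adjusted p = 0.193) under the deposited scaling and 0.11 ± 0.05 (SE; limma adjusted p = 0.0427) after quantile normalization. Rpl7a, a large-subunit protein, showed the same pair of calls, with 0.06 and 0.10 (adjusted p = 0.303 and 0.0398). Rplp1, Rplp2, Rpl10 and Rps19 were not among the 44 members. Probe sets whose several symbols include Rplp1, Rpl10 or Rps19 are among the 34 counted below.

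The members that varied most between tumours were dim. The SD of the log2 signal over the 24 tumours was 0.37 for Rps4y2, 0.33 for Rpl39 and 0.32 for Rps27l, against 0.063 to 0.211 for the 38 bright members. Rpl39, which lines the exit tunnel, ranged from 234 to 462 in normal glands and from 250 to 552 in tumours, and its log2 change was 0.11 ± 0.11 (SE; limma adjusted p = 0.421). The median SD of the members was 0.129 in normal glands and 0.119 in tumours, and that of all genes was 0.249 and 0.275. For this spread too, other equally bright genes were not compared. Rpl7l1, a paralog of Rpl7, read 330 to 550 in tumours and 352 to 526.1 in normal glands and was not called under either scaling, and neither was Rpl7 by its bright probe set (-0.08 ± 0.07, SE). The dim probe set of Rpl7 read 135 ± 75.3 (SD) in normal glands and 248 ± 45.4 (SD) in tumours, and its log2 change was 1.04 ± 0.17 (SE; limma adjusted p = 3.09e-06). The dim probe set of Rps24 was called higher too, with 99.1 ± 17.7 (SD) in normal glands and 135 ± 27.5 (SD) in tumours and a log2 change of 0.43 ± 0.11 (SE; limma adjusted p = 0.00148), while the bright one was called after quantile normalization alone.

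The 34 ribosomal protein probe sets with several symbols were tested in the fit over all probe sets. Under the deposited scaling 13 were higher, 3 lower and 18 not called, with a median log2 change of -0.003. After quantile normalization 19 were higher and 15 not called, with a median of 0.15. No share over all probe sets stands beside these counts. The shares of all genes given above come from another fit, with 1 probe set per gene.

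The level of the ribosomal protein genes as a group varied little from array to array. For each array the median deviation of the 38 bright members from their mean over all arrays was taken. Under the deposited scaling it ran from -0.11 to 0.11 in normal glands, with a median of 0.0039, and from -0.11 to 0.14 in tumours, with a median of 0.0036. The groups overlapped throughout. X18 was the highest tumour and X22L the lowest, by this median. Of the 38 members, 9 had their highest tumour value in X18 and 9 in X29.1, and 8 had their lowest in X26 and 7 in X22L.

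After quantile normalization the normal glands spread further apart. Their medians ran from -0.24 in X28.1N to 0.13 in X27.1N, and those of the tumours from -0.16 in X22L to 0.13 in X29.2. The 3 highest normal glands were NewN4, NewN6 and X27.1N, at 0.05, 0.10 and 0.13. Under the deposited scaling they were at 0.11, 0.02 and -0.01, and other NewN glands, NewN1 at 0.08 among them, lay above the last 2. NewN4, NewN6 and X27.1N had far more of the B cell marker Cd79b than any other array, with signals of 809, 1111 and 1013 against at most 42.9 elsewhere. The whole lymphocyte list summed to 8751, 15355 and 9769 in them and to 1781 to 2290 in the other normal glands. They also had the 3 highest macrophage sums of the normal glands, 21048, 23438 and 20273 against at most 15863. Their adipocyte sums were the 3 lowest, 36886, 29517 and 23739 against at least 45268, and so were their fibroblast sums, 35004, 30426 and 32432 against at least 38928, and their endothelial sums. The part of these differences in the ribosomal protein level was not tested. Without these 3 glands, 23 members were higher and 2 lower in tumours after quantile normalization, with a median of 0.14, against 32.7% and 21.2% of all genes with a median of 0.0758. Without them 10 were higher and 5 lower under the deposited scaling, against 30.5% and 26% of all genes.

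**Figure D3:**
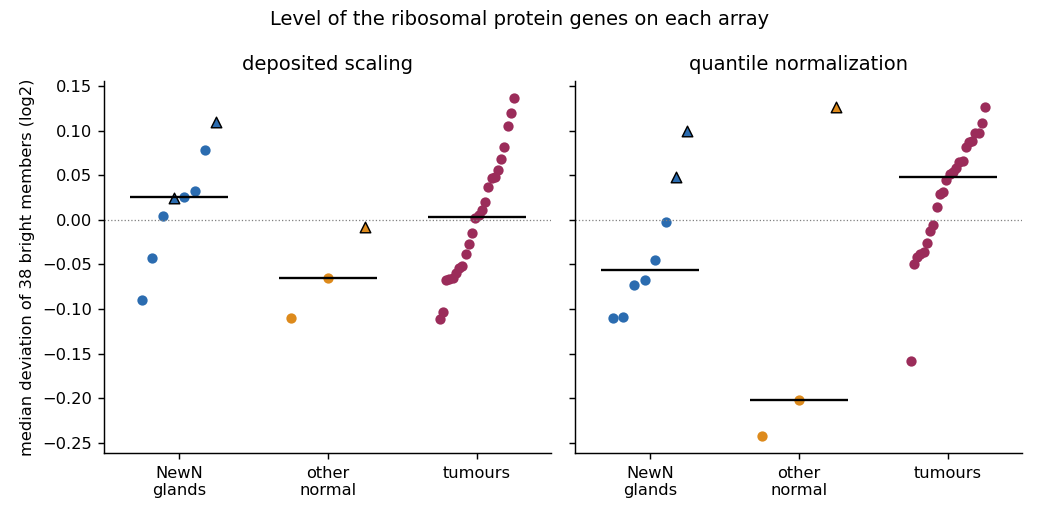
Median deviation (log2) of the 38 bright ribosomal protein genes on each array, under the deposited scaling on the left and after quantile normalization on the right; points are arrays, bars are medians of the 8 NewN glands, the 3 other normal glands and the 24 tumours, and triangles mark NewN4, NewN6 and X27.1N. The groups overlap on the left, and on the right the triangles are the 3 highest normal glands.

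With each array centred on this median, which sets the members against each other, 15 of the 44 were called in either direction, 7 higher and 8 lower in tumours, against 56.9% of all genes. Rps27l, Rpl12, Rpl27, Rpl41, Rpl18, Rpl6 and Rpl24 remained higher. Rps4y2, Rps9, Rpl14, Rpl3l, Rpl19, Rpsa, Rps29 and Rps23 were lower.

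Across arrays most members moved together, but only in part. Over the 703 pairs of bright members, the median Pearson correlation of log2 signals under the deposited scaling was 0.38 in the 24 tumours and 0.40 in the 11 normal glands, and after quantile normalization it was 0.32 and 0.58. The means were 0.33 in tumours and 0.35 in normal glands under the deposited scaling, and 0.29 and 0.52 after quantile normalization. All the pairs share their arrays, and the mean correlation over pairs of all genes was near 0 in each case, at most 0.0085. Scaling arrays to each other tends to hold that mean near 0, and pairs of other equally bright genes were not compared. The pair most alike in tumours under the deposited scaling was Rpl7a and Rps6 (r = 0.87, and 0.77 after quantile normalization), and after quantile normalization it was Rps3 and Rps9 (r = 0.89, and 0.78 deposited). Rps6 had the highest median correlation with the other members under the deposited scaling, 0.52, and Rpl7 after quantile normalization, 0.49, where Rps6 had 0.47. Rpl19, Rpl13a and Rpl21 stood apart, with medians of -0.07, -0.06 and 0.04 in tumours under the deposited scaling. After quantile normalization Rpl13a and Rpl21 had medians of 0.33 and 0.22, and Rpl19 one of -0.03.

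In normal glands some members ran in opposite directions. Rpl37a and Rps15a had the lowest correlation of the 703 pairs under the deposited scaling, -0.87 over the 11 glands. After quantile normalization it was -0.54. Over the 8 NewN glands, which are part of the 11, it was -0.845 under the deposited scaling. In the 24 tumours the same pair had a correlation of 0.08. Rpl19 and Rpl5 had the highest correlation in normal glands, 0.93, and one of 0.58 in tumours under the deposited scaling. Both pairs were picked as extremes of the normal glands, so their weaker correlation in tumours tests nothing.

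**Figure D4:**
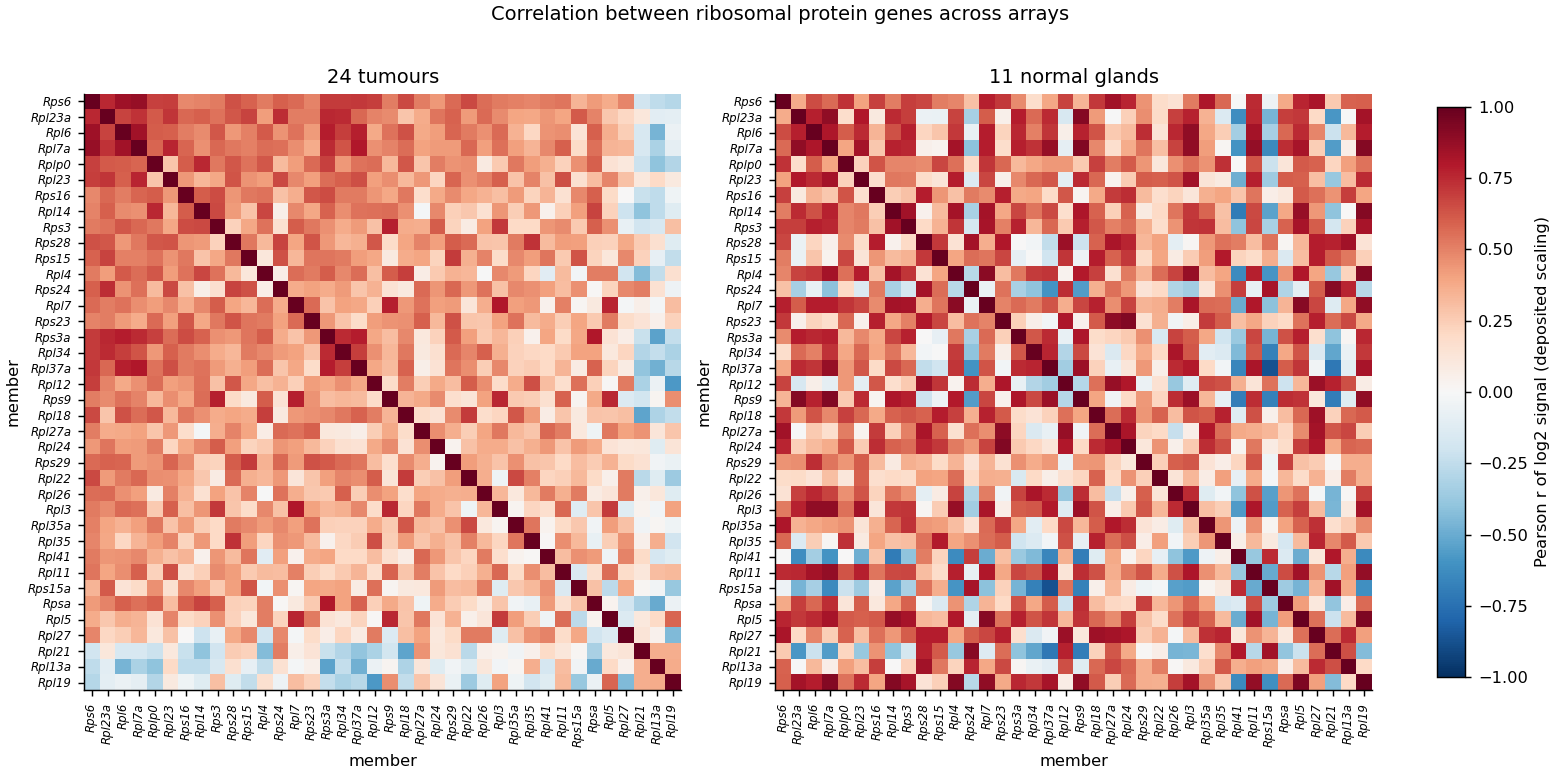
Pearson correlation of log2 signals between the 38 bright ribosomal protein genes across the 24 tumours (left) and the 11 normal glands (right), deposited scaling, both ordered by the median correlation in tumours; red is positive and blue negative. Most pairs are positive in both groups, and Rpl21, Rpl13a and Rpl19 at the end of the order have many negative pairs in tumours, while Rpl41, Rps15a and Rpl21 do in normal glands.

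The 2 kinds of normal gland differed in a few ribosomal protein genes. Under the deposited scaling 5 members were higher in the 8 NewN glands than in the 3 other glands and 2 were lower, against 4.9% and 4.62% of all genes. After quantile normalization 4 were higher and 2 lower, against 2.78% and 2.2%. The median log2 difference, NewN minus other, was 0.09 under the deposited scaling for the members. In this contrast the NewN glands also had more of the luminal list (4 of 19 called higher) and less of the mitosis list (8 of 25 called lower). Of the 14 basal epithelium genes 4 were called higher and 1 lower, with sums of 8495 to 15890 against 5835 to 7842. The Gapdh ratio of the NewN glands was 1.17 ± 0.125 against 1.03 ± 0.0589 (SD). The part of these differences was not tested.

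Rps9 differed most between them. It read 4558 to 4989 in NewN glands, median 4868, and 3576, 3786 and 3825 in the other 3, with a log2 difference of 0.38 ± 0.11 (SE; limma adjusted p = 0.0232). All 8 NewN glands lay above all 24 tumours, but narrowly, since the lowest read 4558 and the highest tumour 4551. Rps9 is described because its difference was the largest, and the share of all genes that separate in this way is not given. The 3 other glands lay inside the range of the tumours. Against those 3 glands alone, the change of Rps9 in tumours was 0.02 (limma adjusted p = 0.937).

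Rpl41 differed the other way, but the NewN glands did not all lie below the tumours, of which the lowest read 5251. It read 4472 to 5262 in NewN glands, median 4898, and 5552, 5691 and 6425 in the other 3, a log2 difference of -0.27 ± 0.07 (SE; limma adjusted p = 0.0131). The 3 other glands again lay inside the range of the tumours. Rps15a was lower in NewN glands too, by a log2 difference of -0.27 ± 0.08 (SE). Rpl19 was higher by 0.34, Rpl23a, which lies at the mouth of the exit tunnel, by 0.30, Rpl4 by 0.26 and Rpl37a by 0.25, with limma adjusted p-values from 0.0156 to 0.0429.

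**Figure D5:**
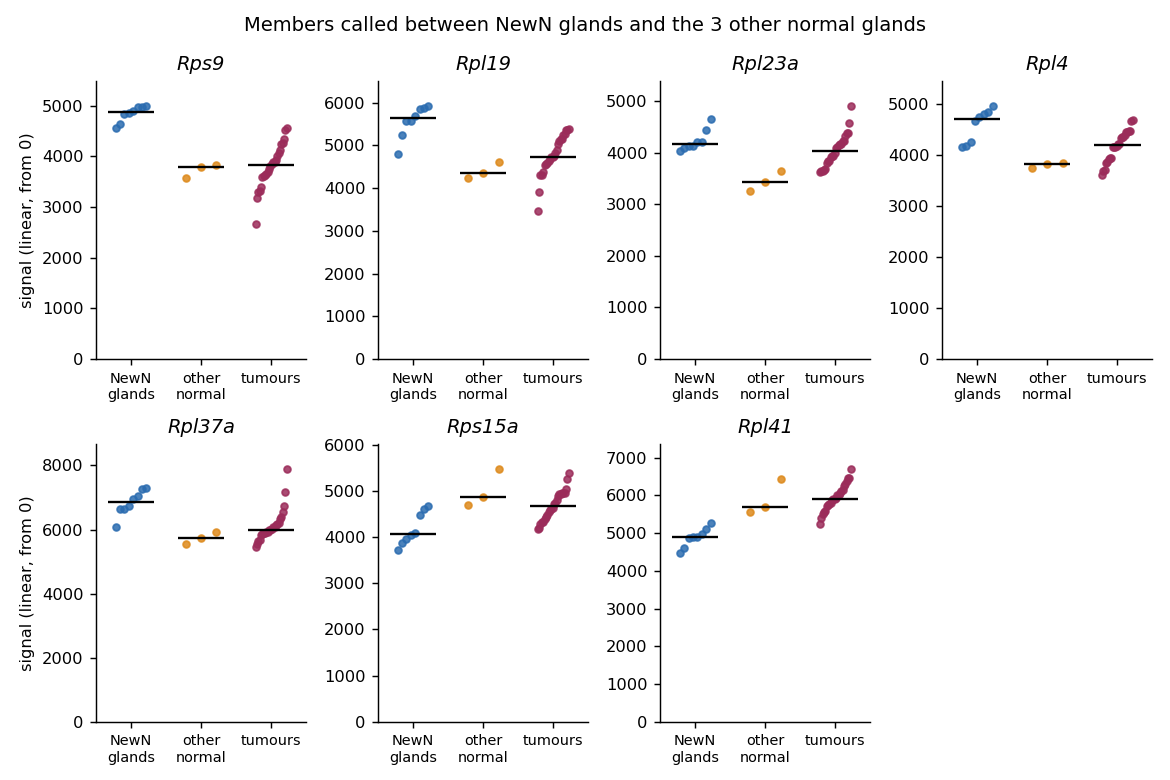
Signal of the 7 ribosomal protein genes called between the NewN glands and the other normal glands, on linear axes from 0; points are arrays and bars are group medians of 8, 3 and 24 arrays. In Rps9, Rpl19, Rpl23a, Rpl4 and Rpl37a the NewN glands lie higher than the other 3, and in Rps15a and Rpl41 lower.

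These calls rest on 3 glands. Without X28.1N none of the 5 higher members was called and both lower ones were. Without X27.1N 2 members were called higher, Rpl19 among them, and Rpl41 alone was called lower. Without Young Rpl23a alone was called higher and neither Rpl41 nor Rps15a was called. In the limma fit without X28.1N, 8 members were higher and 3 lower at an unadjusted p under 0.05, and without Young 10 and 2. The share of all genes at that unadjusted threshold is not given, so these counts have no background beside them. X28.1N was the lowest normal gland for 19 of the 38 bright members.

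The choice of normal glands also moved the tumour comparison. With only the NewN glands as normal, 6 members were higher and 12 lower in tumours under the deposited scaling, against 31.3% and 28.9% of all genes. With only the other 3, Rps27l, Rpl27, Rpl6 and Rpl23a were higher and Rps4y2 was lower, against 7.18% and 11.3% of all genes. Rps27l and Rps4y2 kept their calls in both, at log2 changes of 0.58 and 0.80 for Rps27l and -0.74 and -0.93 for Rps4y2.

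Genes that serve the ribosome were taken from lists chosen with earlier results of these data known. Beside the counts of every list below stand the shares of all 10411 genes. These were 31.4% higher and 27.5% lower under the deposited scaling, and 33.9% and 22.5% after quantile normalization. Whether a list differed from these shares was not tested. Of 51 genes of ribosome assembly and ribosomal RNA synthesis, 14 rose and 9 fell in tumours under the deposited scaling, with a median of 0.03, and 16 rose and 6 fell after quantile normalization. Rrp9, which belongs to a small nucleolar particle needed to cleave the ribosomal RNA precursor, rose by 0.58 ± 0.10, and Nop58, a core protein of box C/D particles, by 0.48 ± 0.10 (log2, SE, deposited scaling). Sbds, which frees new large subunits for use, had a log2 change of -0.81 ± 0.10 (SE), and Nop53 one of -0.75 ± 0.16 (SE).

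Of 71 mitochondrial ribosomal protein genes, whose products make up the separate ribosome of that organelle, 10 rose and 27 fell under the deposited scaling, with a median of -0.07. After quantile normalization 20 rose and 13 fell. Mrpl33 had the largest fall, from 804 ± 71.0 to 410 ± 100.4 (SD), a log2 change of -1.01 ± 0.11 (SE; limma adjusted p = 8e-10), and Mrps7 followed with -0.77 ± 0.09 (SE). Mrpl38 rose by 0.41 ± 0.08 and Mrpl51 by 0.30 ± 0.08 (SE).

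Of 36 genes listed for initiation, 3 rose and 10 fell under the deposited scaling, but 15 rose and 6 fell after quantile normalization. The medians had opposite signs, -0.09 and 0.15. The list includes Eif4ebp1 and Eif4ebp2, which inhibit initiation, and both were called lower under the deposited scaling. Eif4g1, the scaffold of the cap-binding complex, had a log2 change of -0.92 ± 0.14 (SE), and Eif2s3 one of -0.53 ± 0.09 (SE). Eif2s1 rose by 0.25 and the helicase Eif4a1 by 0.18 under the deposited scaling. Of 12 genes listed for elongation and termination, 1 rose and 5, Eef2k among them, fell under the deposited scaling. After quantile normalization 4 rose and 3 fell. Eef2k, the kinase that inhibits elongation factor Eef2, had a log2 change of -1.20 ± 0.14 (SE; limma adjusted p = 5.04e-09) under the deposited scaling and the same value after quantile normalization, while Gspt2, a termination factor, rose by 0.37 ± 0.09 (SE).

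Of 20 genes listed as regulators of ribosomal protein synthesis, 6, the p53 target Cdkn1a among them, rose and 5 fell under the deposited scaling. After quantile normalization 9 rose and 2 fell. Mycn, a transcription factor of the Myc family, rose from 48.6 ± 18.3 to 109 ± 41.6 (SD), a log2 change of 1.06 ± 0.17 (SE; limma adjusted p = 3.22e-06), and 4 normal glands were at the floor. Larp1 rose by 0.31 ± 0.07 (SE) under the deposited scaling and by 0.57 ± 0.06 (SE) after quantile normalization. Rps6kb1, an S6 kinase, had a log2 change of -0.35 ± 0.08 (SE), and Rheb, the activator of mTOR, one of -0.31 ± 0.07 (SE) under the deposited scaling and of -0.01 after quantile normalization. Rack1, a small-subunit protein named outside the rule, had a log2 change of 0.02 ± 0.06 (SE; limma adjusted p = 0.749) under the deposited scaling and 0.19 ± 0.07 (SE; limma adjusted p = 0.0162) after quantile normalization.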

How the data were processed

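Each of 35 samples was read on one array of the RAE230A design. The deposited table, per the file headers, holds 1 value per probe set and sample. The authors deposited these values as an intensity on a linear scale, with a lowest value of 1 (0.648% of the values). No source used here names the software, background correction or scaling behind them.

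The 57 control probe sets were left out of 15923. Values below the 10th percentile of all values were set to it (41.6, or 41.9 after quantile normalization) and log2 was taken. Of 15866 probe sets, 12783 carry 1 symbol, 312 several and 2771 none. Of the Entrez identifiers, 12748 matched RefSeq GRCr8, and 0 symbols changed. One probe set per gene, the one with the highest mean, was used. The Entrez identifiers of 42 of the 44 members matched.

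Tumours and normal glands, and the 2 kinds of normal gland, were tested in R 4.3.3 by limma 3.58.1, with lmFit and a trended, robust eBayes, and Benjamini-Hochberg adjustment over 10411 genes, called under 0.05. The procedure was tested on simulated data. Sequences came from RefSeq, and figures were drawn with Python 3.11.15 and matplotlib 3.10.9.

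The members, gene lists and tests were chosen with earlier results of these data known. Members were described in full if they were among the 8 largest rises or falls called under both scalings, paralogs with their parents, the 3 of largest spread in tumours, or in a fixed panel. Members called under the deposited scaling alone or between the normal glands were added after their values were seen. Other lists gave up to 2 rises and 2 falls each. Larp1, Rheb, Cdkn1a, Mdm2, Rack1 and the pairs of members are named for their role or their values. Alternatives changed the scaling of arrays, the percentile of the floor, the filter on dim probe sets, eBayes, array weights, a replicate block, the glands and tumours used, and the probe set per gene. Counting probe sets with several symbols, centring arrays on the members, and leaving out X27.1N or X28.1N were chosen after seeing the data.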

Additional observations from a re-analysis of the deposited data

How the results depend on the processing

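The calls of ribosomal protein genes depended most on the array scaling and on the normal glands used. Against 9 higher and 5 lower with a median log2 change of 0.0061, quantile normalization gave 18 and 2 with a median of 0.094, and scaling on the 75th percentile gave 24 and 2 with a median of 0.13. Under the 75th percentile 4431 of all genes were higher and 2072 lower, with a median of 0.14. There 68.1% of called genes were higher, against 53.3% under the deposited scaling. After quantile normalization with only the NewN glands as normal, 14 were higher, against 3469 of all 10411 genes. With only the other 3, 1 was lower (median 0.13), against 1027 of all genes. Without NewN4, NewN6 and X27.1N, 23 were higher and 2 lower (median 0.14), against 3407 and 2203 of all genes. Under the deposited scaling, 12 were lower with only the NewN glands, against 3005 of all genes. With only the other 3, 4 were higher and 1 lower, against 748 and 1176 of all genes. Array weights gave 9 lower, against 3358 of all genes, and centring arrays on the members gave 8 lower, against 2880. Counting probe sets with several symbols gave 25 higher and 10 lower of 84. No share over all probe sets stands beside that last count. Over all genes, 6134 were called, against 3578 among the 6006 genes left by a filter on dim probe sets, and 1924 (deposited) or 1980 (quantile) with only the other 3 glands as normal, where fewer samples or genes were tested.

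Plain quantile normalization changed the sign of 11 members. Among them were Rpl3, then at 0.02, Rpl11 at 0.01, Rpl7 at 0.02 and Rpl7l1 at 0.12, all uncalled. In the other alternatives the members that turned direction included the following. Scaling on the 75th percentile gave Rpl3 0.12, Rpl11 0.11 and Rps29 0.0348. With only the other 3 glands as normal, Rpl21 was -0.0517 and Rps9 0.0194, and after quantile normalization Rps9 was 0.16 and Rpl14 0.19. Quantile normalization without NewN4, NewN6 and X27.1N gave Rpl14 0.0879. The mean of all probe sets gave Rpl7 0.48 and Rpl14 0.0641, and the dimmest probe set gave Rpl7 1.04 and Rpl14 0.36. Apart from the alternatives that changed the probe set, the cause was not tested.

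Between the NewN and the other normal glands, 991 genes were called, 518 after quantile normalization and 390 without NewN4, NewN6 and X27.1N. In that last fit 0 members were higher, against 13 at an unadjusted p under 0.05 (limma), a count given without the share of all genes. Leaving out each of the 3 other glands in turn gave 0 to 2 higher members, 0 to 2 lower members and 371 (without Young), 539 (without X28.1N) and 596 (without X27.1N) genes.

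The title numbers shared by X25L and X25R, X29.1 and X29.2, X27 and X27.1N, and X28 and X28.1N are no more than shared numbers in the labels. With that number as a replicate block (correlation 0.332), 8 members were higher and 5 lower, and 6250 genes were called. Other replicate numbers were given in accession order and pair nothing.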
